A study of Homo sapiens with 4 samples.

Results

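The keratin genes of the human genome lie in 2 clusters, and the TEAD4 binding sites in both were examined by chromatin immunoprecipitation and sequencing (ChIP-seq) in MKN28 and SNU216, gastric cancer cell lines. Members were the called peaks with a midpoint in either of 2 windows on the build hg19: type I on chromosome 17 from 39000001 to 39800000, and type II on chromosome 12 from 52550000 to 53400000. There were 91 members among 39477 peaks in MKN28 and 35 among 11540 peaks in SNU216, 126 of 51017 in all. The groups were MKN28 cells precipitated with a TEAD4 antibody and SNU216 cells precipitated with the same antibody, 1 library each, and the peaks of each were called against 1 input library of the same line made without antibody. No treatment or genetic change is given for either line. MKN28 is known as a derivative of MKN74, another gastric line. Since each line gave 1 library, nothing below tests a difference between the lines, and every comparison describes these 2 lists. Intervals are exact 95% Clopper-Pearson intervals for counting error only, and neighbouring peaks are not independent. The depth of sequencing is unknown, as the files carry no reads or counts.

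Keratins are the intermediate filament proteins of epithelial cells. A filament is built from pairs of a type I (acidic) and a type II (basic) chain. KRT8 (type II) and KRT18 (type I) form the pair of simple, single-layered epithelia such as that of the stomach, with KRT19, KRT7 and KRT20 as further keratins of glandular epithelia. KRT5, with KRT14 as its partner, marks the basal layer of stratified epithelium, and KRT17 is induced there after injury. KRT23 is a type I and KRT80 a type II keratin of epithelial cells. TEAD4 is a transcription factor that binds DNA and recruits the co-activators YAP and TAZ, which carry the output of the Hippo pathway.

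Keratin genes are given here by name and order alone. They were counted over all of chromosomes 12 and 17, so some may lie outside the windows. In RefSeq (GRCh38.p14), chromosome 12 carries 27 protein-coding keratin genes, from KRT80 and KRT7 at one end, through KRT5, to KRT8 and KRT18 at the other. Chromosome 17 carries 28, in an order in which KRT20 and KRT23 come before 34 genes for keratin-associated proteins of hair, and KRT19 and KRT17 after them. Gene positions on hg19 were not used here, so no peak is assigned to a gene and the windows' keratin content rests on their definition. The lists hold no expression values, so keratin or stomach markers could not be checked. To show what a TEAD site looks like in these genes, the core motif GGAATG, which reads CATTCC from the opposite strand, was searched on both strands of the 300 bases around each gene start, 250 before it and 50 after. RefSeq promoters were at hand for 34 of the 55 keratin genes, and 6 of the 34 (17.6%, interval 6.76 to 34.5) held the motif, near the 14.0% of all 35116 promoters. Among the keratins named above, only KRT5, KRT8 and KRT20 were searched. KRT7, KRT14, KRT17, KRT18, KRT19, KRT23 and KRT80 had no promoter at hand, so their motif content is unknown. Each line below gives 12 bases on either side of the motif, which stands in capitals, along the strand of the gene, the minus strand in all 6. For KRT85, with 3 matches, the one farthest upstream is shown.
KRT8, chr12:52926435-52926464 (GRCh38.p14): gcaaatgtttgcGGAATGaatggggtgagc
KRT75, chr12:52434441-52434470 (GRCh38.p14): gcggatgcccagGGAATGccatcagaaggc
KRT85, chr12:52364734-52364763 (GRCh38.p14): gctacttctgggGGAATGaagagaggaaat
KRT25, chr17:40755473-40755502 (GRCh38.p14): tgccctcctacaGGAATGagcccagcaaag
KRT40, chr17:40987283-40987312 (GRCh38.p14): ctgacccttgaaCATTCCcaggcactgtta
KRT38, chr17:41441128-41441157 (GRCh38.p14): cagattcgtcaaCATTCCtttaacgagctg
The KRT8 match begins 18 bases into the transcribed part and the KRT75 match 87 bases before the gene start. These GRCh38 positions cannot be set against the hg19 peaks, and a match is not a bound site.

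Both keratin windows were dense in TEAD4 peaks in both lines. In the type I window, 41 MKN28 peaks gave 51.3 per Mb and 20 SNU216 peaks gave 25 per Mb. In the type II window, 50 MKN28 peaks gave 58.8 per Mb and 15 SNU216 peaks gave 17.6 per Mb. Over 3048 windows of 1 Mb along chromosomes 1 to 22 and X, the median was 10 MKN28 and 3 SNU216 peaks. At least the density of the type I window was found in 0.394% of these windows for MKN28 and in 0.361% for SNU216. For the type II window, the shares were 0.0984% (3 windows) for MKN28 and 1.21% (37 windows) for SNU216. The keratin windows are bounded around genes while the 1 Mb windows are not, so these percentages only place the densities. Over windows as long as the cluster itself, the shares for MKN28 were 0.631% (type I) and 0.167% (type II), over 1.5 times those above, and for SNU216 they were 0.394% and 1.79%.

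**Figure D1:**
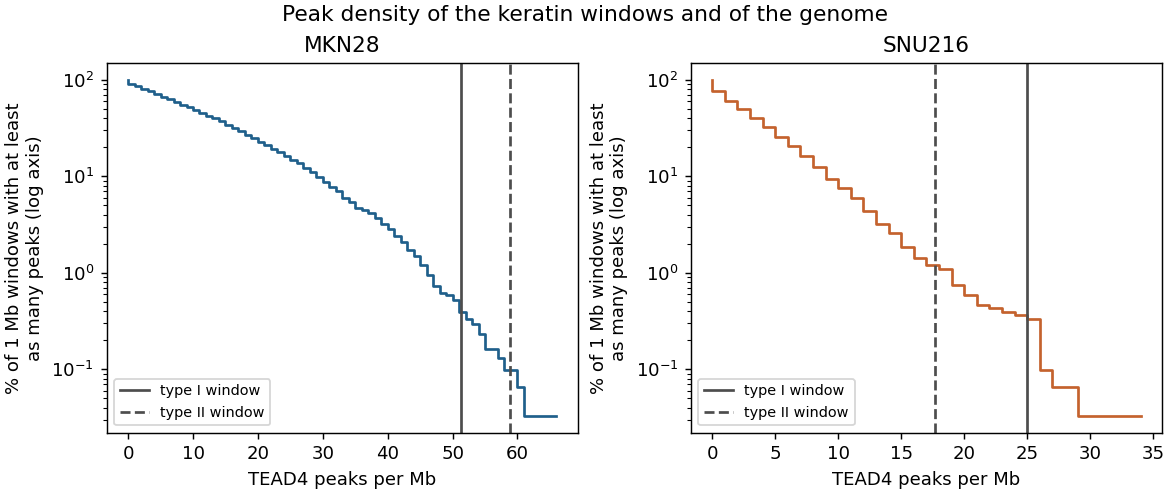
Peak density of the keratin windows (vertical lines, peaks per Mb) beside all 1 Mb windows of the genome, MKN28 on the left and SNU216 on the right. The curve gives the percentage of 1 Mb windows with at least as many peaks, on a log axis. Both keratin windows lie where few 1 Mb windows are as dense, at 51.3 and 58.8 peaks per Mb in MKN28 and 25 and 17.6 in SNU216.

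MKN28 had more of its keratin peaks in the type II window, and SNU216 had more in the type I window. The ratio of MKN28 to SNU216 peaks was 2.05 in the type I window (interval 1.17 to 3.69) and 3.33 in the type II window (1.84 to 6.39), against 3.42 over the whole lists, a value that both intervals include. On the rest of chromosome 17 the ratio was 3.37, inside the type I interval, and on the rest of chromosome 12 it was 5.16, inside the type II interval. When the MKN28 list was limited to its 11540 highest-scoring peaks, so that both lists had equal length, 12 MKN28 peaks stood against 20 SNU216 peaks in the type I window, and 20 against 15 in the type II window.

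Sites common to both lines made up 15 of 46 sites in the type I window and 13 of 52 in the type II window. A peak was counted as shared when at least 1 bp overlapped a peak of the other list. In MKN28, 15 of 41 type I peaks (36.6%, interval 22.1 to 53.1) and 13 of 50 type II peaks (26.0%, 14.6 to 40.3) were shared, against 17.1% of all MKN28 peaks. The type I interval lies above the whole-list value and the type II interval includes it. In SNU216, 15 of 20 type I peaks (75%, 50.9 to 91.3) and 13 of 15 type II peaks (86.7%, 59.5 to 98.3) were shared, against 59.3% of all SNU216 peaks. The SNU216 intervals reach the whole-list value in the type I window and lie just above it in the type II window. These shares depend on the length of the MKN28 list. With the MKN28 list of equal length, 58.3% of type I and 50% of type II MKN28 peaks were shared, against 35.2% of that list, and both intervals (27.7 to 84.8 and 27.2 to 72.8) include the value of the list. In SNU216, 35% of type I peaks (15.4 to 59.2) and 66.7% of type II peaks (38.4 to 88.2) were then shared, against 36.1% of the list. With the full lists, the other sites were found in MKN28 alone (26 in type I and 37 in type II) or in SNU216 alone (5 and 2). Partner peaks lay close together, with a median distance between midpoints of 37 bp (1 to 443 bp) in type I and 46 bp (6 to 214 bp) in type II, against 55 bp over all 6841 overlapping SNU216 peaks. The SNU216 peak lay wholly inside its MKN28 partner at 6 of 15 type I sites and at 11 of 13 type II sites, against 58.8% of all overlapping SNU216 peaks.

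**Figure D2:**
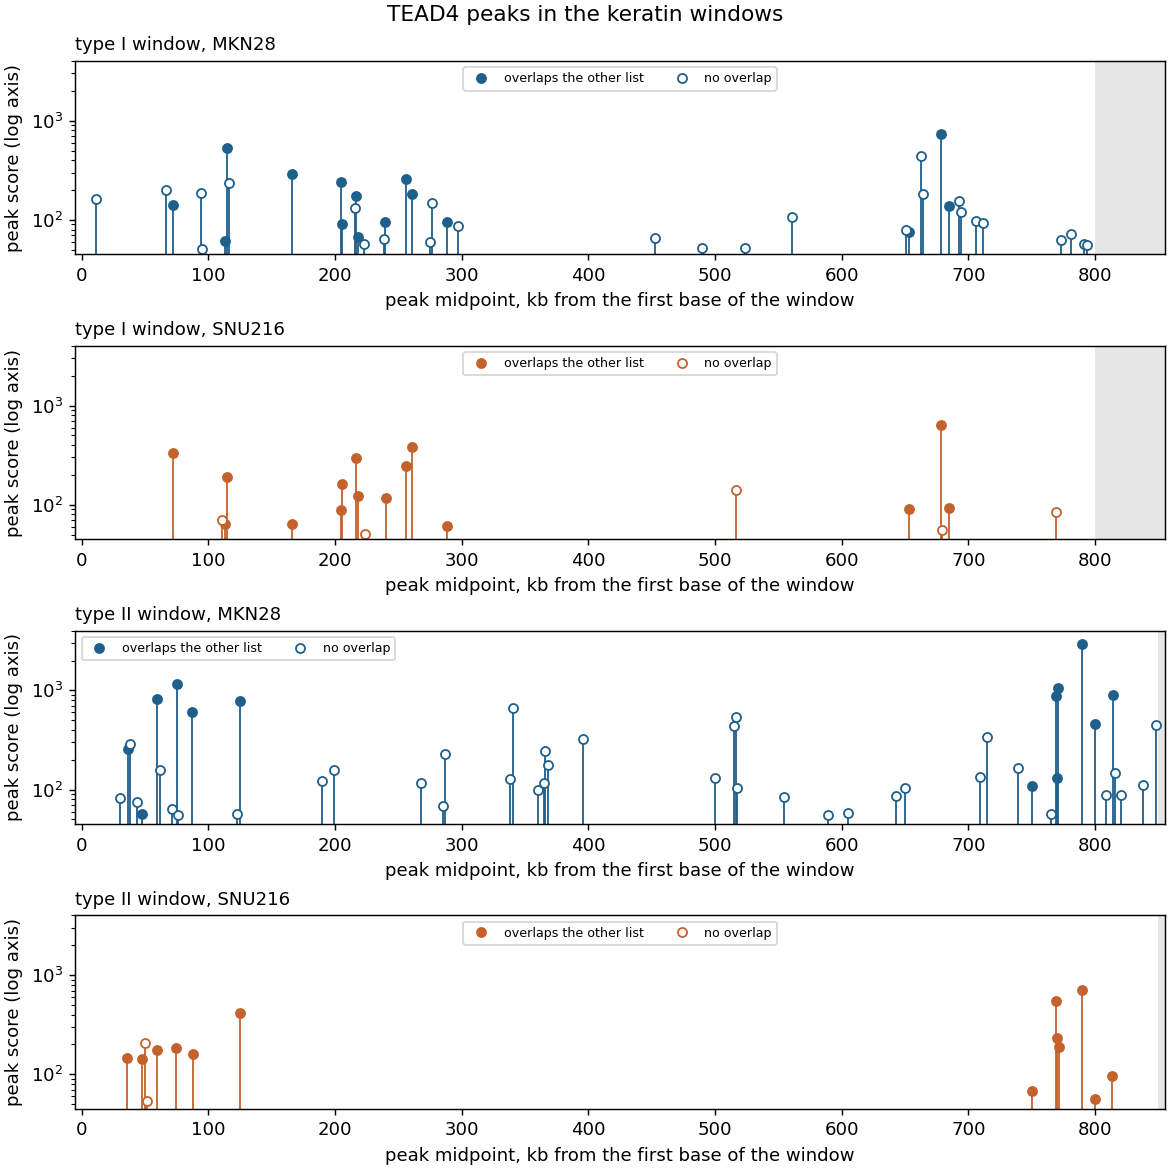
Every member peak by the distance of its midpoint from the first base of its window (kb) and by the authors' score (log axis), for MKN28 above SNU216 in each window. Filled points overlap a peak of the other list, open points do not, and grey marks positions past the end of the window; between 125 and 750 kb of the type II window MKN28 has 24 peak midpoints and SNU216 none.

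The median type II peak scored above the median of its list in both lines. The score is the authors' value from their peak caller, on a scale that the files do not state, and ranks are therefore taken within a list. In MKN28 the median score was 133 in the type II window (quartiles 87.7 and 411) and 97.7 in the type I window (65.7 and 182), against 99.8 over the list. In SNU216 the medians were 177 (119 and 219) in type II and 104.5 (68.6 and 205) in type I, against 84.7 over the list. The median rank percentile of type II peaks was 62.2 in MKN28 and 78.5 in SNU216. In MKN28, the 13 shared type II peaks had a median score of 785 and the 37 others 116. Over the MKN28 list these medians were 226 for shared and 88.6 for other peaks. Scores of 100 or more were given to 36 of 50 type II and 20 of 41 type I peaks in MKN28, where 49.9% of the list reached it. In SNU216 it was reached by 11 of 15 type II and 10 of 20 type I peaks, against 42.2% of the list. The 10% of MKN28 peaks with the highest scores included 13 type II and 3 type I peaks. Of these, 9 and 2 were shared, against 50.2% of all MKN28 peaks with such scores. The highest-scoring 10% of SNU216 peaks included 3 type I and 3 type II peaks, and all 6 were shared, near the 91.3% of all SNU216 peaks with such scores. Median widths in type II were 613 bp in MKN28 and 486 bp in SNU216, against 525 and 408 bp over the lists. In type I they were 533 and 426 bp. Beside peaks of similar score within a list, the members' median width was at most 1.02 times the usual one in each window and line.

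The strongest keratin site of either line was in the last part of the type II window, the side on which RefSeq orders KRT8 and KRT18. This site, at chr12:53338928-53340370 in MKN28, scored 2942 and ranked in the top 0.0532% of that list. Its SNU216 partner at chr12:53339111-53340150 scored 713, in the top 1.93%. It was the highest-scoring member of both lists and over 1 kb wide in both, at 1443 bp in MKN28 and 1040 bp in SNU216. Before it, at chr12:53318626-53321607, lay a run of 3 neighbouring peaks that was called in full in both lines. Their MKN28 scores were 872, 130 and 1056, and their SNU216 scores were 546, 231 and 189. The first of the 3 spanned 1347 bp in MKN28 (chr12:53318626-53319972) and 908 bp in SNU216. After the strongest site, a peak at chr12:53363560-53364391 scored 891 in MKN28, in the top 2.61%, and its SNU216 partner scored 95.6, in the top 44.0%. A peak at chr12:53349791-53350185 scored 457 in MKN28 and 56.3 in SNU216. Near the end of the window, an MKN28 peak at chr12:53397952-53398371 scored 446 (top 9.21%) and had no SNU216 partner.

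A second group of shared sites stood in the first part of the type II window, the side of KRT80 and KRT7 in the RefSeq order. The MKN28 peak at chr12:52624691-52625254 scored 1154 (top 1.46%), and its SNU216 partner scored 184 (top 20.5%). A site at chr12:52674044-52675336 was broad in both lines, at 1293 bp and a score of 785 in MKN28 and at 1040 bp and 417 in SNU216. Peaks at chr12:52609301-52610080 and chr12:52637019-52637865 scored 811 and 610 in MKN28, and their SNU216 partners scored 177 and 162. All 4 of these sites ranked higher in MKN28 than in SNU216. The opposite order was found at chr12:52597284-52597582, with 57.2 in MKN28 (a rank percentile of 13.6) and 143 in SNU216 (71.9). Just beyond it lay the 2 type II sites of SNU216 alone, at chr12:52600045-52600429 with a score of 208 and at chr12:52601360-52601662 with 53.2.

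Between these groups, the middle of the type II window held TEAD4 peaks in MKN28 and none in SNU216. The longest stretch between neighbouring SNU216 midpoints, from 52674725 to 53300451, measured 626 kb and held 25 MKN28 midpoints. One of these, at the far edge, overlapped the SNU216 peak that ends the stretch. The other 24 had no partner, which follows from the choice of a stretch without an SNU216 midpoint. Of all 39477 MKN28 peaks, 32725 had no partner. At least 25 MKN28 midpoints were found in 0.868% of the 11516 stretches between neighbouring SNU216 peaks of the genome (100 stretches). Of these, 9, the one described here included, were no longer than 626 kb. The median stretch of any length held 2 MKN28 peaks. The one described here was picked as the longest of its window, and longer stretches can hold more peaks, so the percentage only places the count. KRT5 and most other type II keratins of stratified epithelium and hair lie between KRT7 and KRT8 in the RefSeq order. Order alone does not tell which of them lie in this stretch. The MKN28 scores ran from 55.1 to 659 with a median of 127, and 20 of the 25 were at least 100. When the MKN28 list was cut to the length of the SNU216 list, 8 of the 25 were left.

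The strongest of these MKN28 peaks was at chr12:52890289-52890940, with a score of 659 in the top 4.91% of the list. A run of 3 peaks followed at chr12:52915011-52918232, and its middle peak was 1195 bp wide with a score of 245. Another run of 3, at chr12:53064564-53067615, had scores of 436, 533 and 104. Both runs lay in the stretch chosen for its lack of SNU216 midpoints, so they had no SNU216 partner. Sites that the SNU216 list lacks are absent from the authors' calls for an unknown reason, and TEAD4 may still have been bound there. On chromosome 12 outside the window, 13.3% of MKN28 peaks and 69.5% of SNU216 peaks were shared.

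**Figure D3:**
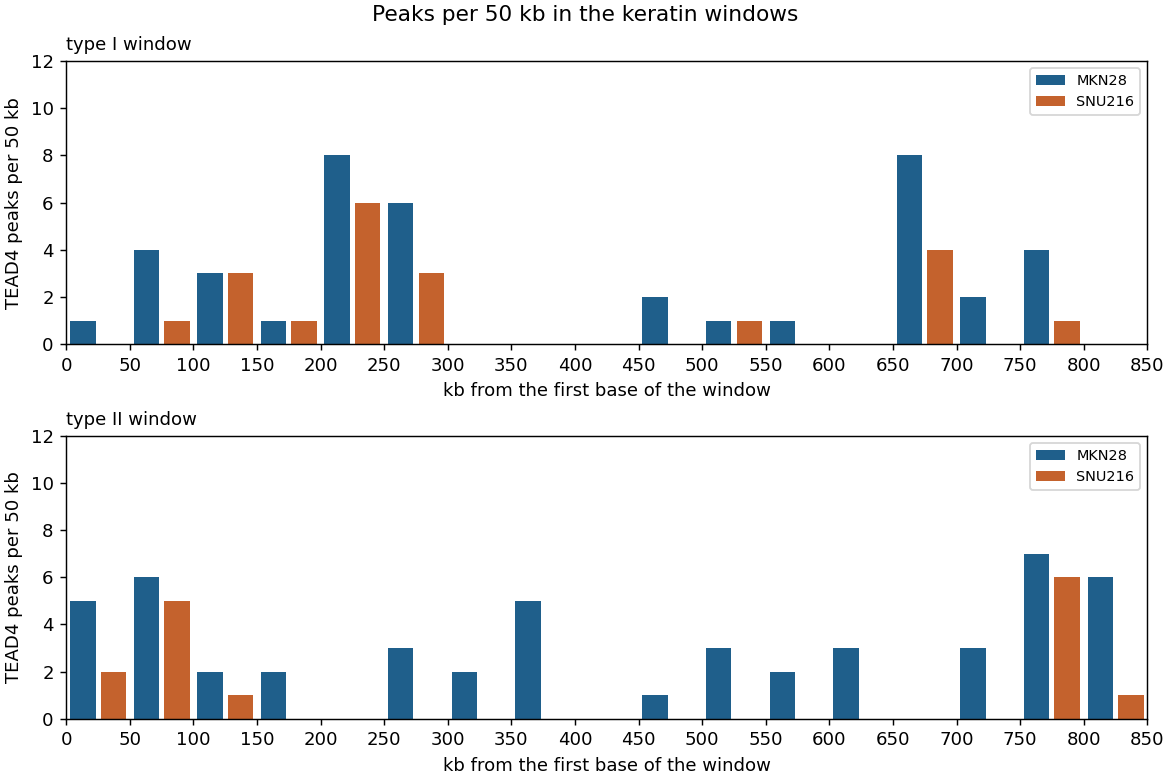
Number of TEAD4 peaks in each 50 kb of the type I window (above) and the type II window (below), MKN28 to the left of SNU216 in each pair of bars. MKN28 peaks fall in 12 of 16 intervals of the type I window and 14 of 17 of the type II window, SNU216 peaks in 8 of 16 and 5 of 17.

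Type I sites formed 2 groups, with few peaks of either line between them. Up to 39297434, the first part of the window held 23 MKN28 and 14 SNU216 peaks, of which 12 were shared in each list. This is the side of KRT20 and KRT23 in the RefSeq order. From there to the next MKN28 midpoint at 39452363 neither line had a peak, a distance of 155 kb between MKN28 midpoints. The part of the window from 39452363 on held 18 MKN28 and 6 SNU216 peaks, of which 3 were shared in each list. Over the whole lists, 17.1% of MKN28 and 59.3% of SNU216 peaks were shared. The longest SNU216 stretch without a midpoint measured 229 kb and held 3 MKN28 peaks, with scores from 51.6 to 87.7. In the RefSeq order, the genes for keratin-associated proteins and most hair keratins come between KRT23 and KRT19. Order alone does not place them against the peaks, so some may lie in the first group. An SNU216 peak of 142 at chr17:39516634-39517281 was the strongest type I site of SNU216 alone. The next ones scored 84.0 at chr17:39769144-39769392 and 70.2 at chr17:39110210-39110553.

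The strongest type I site lay in the second group, the side of KRT19 and KRT17 in the RefSeq order. At chr17:39677792-39678706 in MKN28 it scored 738 (top 3.87%), and its SNU216 partner at chr17:39677700-39678568 scored 632 (top 2.51%). It was the highest-scoring type I member of both lists. Another shared site followed at chr17:39684428-39684960, with 137 in MKN28 and 91.9 in SNU216. The strongest type I peak of MKN28 alone, at chr17:39662442-39663190, scored 442 (top 9.35%).

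Several sites of the first type I group ranked higher in SNU216 than in MKN28. One was at chr17:39260746-39261394 in MKN28, with a score of 182 there (top 27.4%) and 382 in SNU216 (top 6.76%). Scores at chr17:39216401-39216957 were 173 in MKN28 (top 28.9%) and 295 in SNU216 (top 10.5%). At chr17:39071971-39072502 the MKN28 peak of 532 bp scored 143 (top 35.1%), and its SNU216 partner at chr17:39071291-39072296, the one SNU216 type I peak of at least 1 kb, scored 333 (top 8.61%). Other sites ran the other way. At chr17:39114202-39114940 the MKN28 score was 531 (top 7.19%) and the SNU216 score 190 (top 19.7%). At chr17:39165377-39166057 they were 293 (top 16.2%) and 64.0 (top 70.3%). At chr17:39204646-39205302 they were 240 (top 20.4%) and 89.0 (top 47.5%). The site at chr17:39255750-39256512 scored 257 in MKN28 (top 18.9%) and 249 in SNU216 (top 13.7%), so it ranked higher in SNU216. MKN28 peaks of this group without a partner scored up to 236 (chr17:39116291-39116716), followed by 199 (chr17:39066421-39067168).

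Across all shared sites, the MKN28 peak had the higher rank within its list at 5 of 15 type I sites and at 11 of 13 type II sites, against 67.1% of the overlapping SNU216 peaks of the genome. The median rank percentile of shared sites was 64.9 in MKN28 and 66.1 in SNU216 in the type I window, and 96.6 in MKN28 and 78.5 in SNU216 in the type II window. Over the genome it was 78.6 in MKN28 and 63.6 in SNU216. The MKN28 score divided by the SNU216 score had a median of 0.96 in type I (range 0.429 to 4.58) and 3.77 in type II (0.400 to 9.32), against 1.77 over the genome. These ratios can also carry the depth of both libraries and their inputs, which is unknown. Rank percentiles depend on the length of each list and were not recomputed with lists of equal length.

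**Figure D4:**
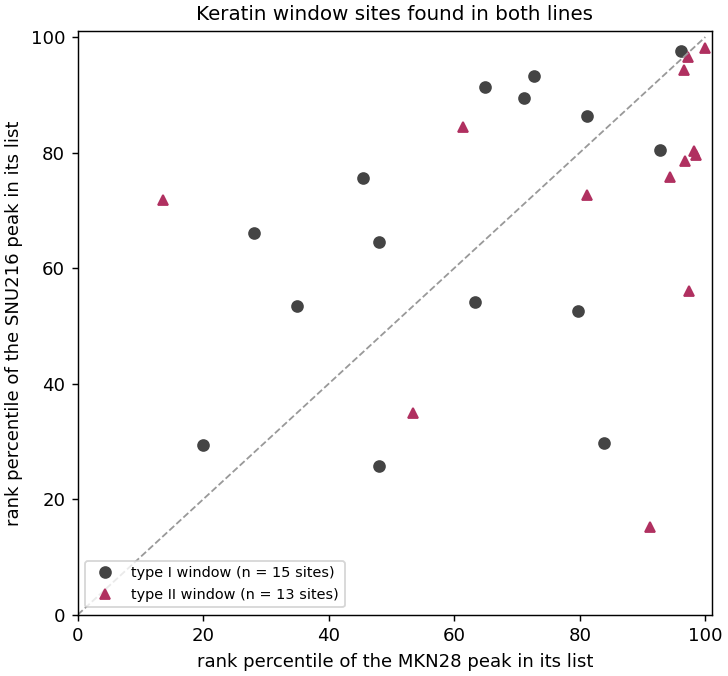
Rank percentile of each shared keratin site within the MKN28 list (horizontal) and the SNU216 list (vertical), with circles for 15 type I sites and triangles for 13 type II sites. Points under the dashed line of equal rank are higher in MKN28, which holds for 11 of the 13 type II sites and 5 of the 15 type I sites. Over the genome it holds for 67.1% of overlapping SNU216 peaks, and rank percentiles depend on the length of each list.

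Keratin peaks often had a close neighbour in the same list. Another midpoint lay within 2 kb for 20 of 41 type I and 21 of 50 type II peaks in MKN28, against 16.0% of that list. In SNU216 this held for 8 of 20 type I and 5 of 15 type II peaks, against 13.6% of the list. On the rest of chromosome 17 the shares were 20.8% (MKN28) and 18.4% (SNU216), and on the rest of chromosome 12 they were 15.0% and 11.1%. Close neighbours are more likely where peaks are dense, and these shares were not matched for density. The keratin peaks with such a neighbour formed 9 runs in each window in MKN28, and 4 runs in type I and 2 in type II in SNU216, each of 2 or 3 peaks. Peaks of at least 1 kb numbered 5 in type II and 0 in type I in MKN28, where they made up 4.05% of the list, and 2 in type II and 1 in type I in SNU216, where they made up 1.40%. The 5 included chr12:53365264-53366318, with a score of 147 and no SNU216 partner.

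At the start of the type I window, the nearest MKN28 midpoint inside lay 11.1 kb from the bound (score 163) and the nearest outside 40.0 kb from it (score 57.8). At its end, the last MKN28 midpoint inside lay 6.40 kb from the bound (score 55.5) and the first outside 4.52 kb from it (score 125). For type II, the nearest MKN28 midpoints at the start were 30.4 kb inside (score 82.3) and 0.741 kb outside (66.4). At its end they were 1.84 kb inside (446) and 42.3 kb outside (57.8). The nearest SNU216 midpoints outside the type I window lay 51.8 kb before it (score 51.2) and 7.95 kb after it (155), and those inside 71.8 kb (333) and 30.7 kb (84.0) from the bounds. For type II they lay 8.67 kb before (145.5) and 42.4 kb after it (131), and inside at 36.1 kb from either bound (147 and 95.6).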

How the data were processed

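TEAD4 ChIP-seq peaks of MKN28 and SNU216 were analysed from 1 deposited MACS list per line, with that line's input as control and no pooling. CASAVA 1.8, Bowtie2 2.0.0, MACS and the build hg19 were used, per the submitters' processing notes. The settings, the version of MACS and any filtering of reads or duplicates are not stated in the sources used here. The unit is the score that the authors deposited for each peak, on an unstated scale. It can rise with depth, and depth is unknown. No values of the inputs were used.

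Positions were converted to 1-based hg19 coordinates. Sharing meant at least 1 bp of overlap. Shares and ratios carry exact 95% intervals, and ranks were taken within a list. Width for score was a peak's width over the median of the 201 peaks closest to it in score. No test was run, since each line has 1 library. Named peaks were, per window, the 5 highest-scoring shared peaks of each list, the 3 highest-scoring unshared ones and all of at least 1 kb; peaks named beyond these were chosen after their values were seen. Members, lists and comparisons were chosen with earlier results of these data known. Gene names, order and promoters came from RefSeq (GRCh38.p14). The overlap and gap code was tested on simulated data. Computations used Python 3.11.15 with scipy 1.17.1, numpy 2.4.6 and pandas 2.3.3.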

Additional observations from a re-analysis of the deposited data

How the results depend on the processing

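Of 74 values recomputed under alternatives, 51 stayed within their 95% interval or within 1.5 times the reported count (for empty 50 kb intervals, within 10 percentage points) and 23 did not. Membership by 1 bp, windows widened by 100 kb, 50% mutual overlap and midpoints within 200 bp moved none. When peaks scoring under 100 were dropped, 20 MKN28 and 10 SNU216 type I peaks were left. Their median scores were 183 and 219, their median widths 619 and 604 bp, the longest MKN28 gap was 284 kb, and 50% (MKN28) and 62.5% (SNU216) of the 50 kb intervals were empty. These moves follow from dropping weak peaks. With an MKN28 list of equal length, 12 type I and 20 type II MKN28 peaks were left, the ratios were 0.600 and 1.33, and 58.3% and 50% of these MKN28 peaks were shared, against 35.2% of that whole list. The shared part of SNU216 type I peaks was then 35%, against 36.1% of all SNU216 peaks, and the longest SNU216 gap held 0 MKN28 peaks in type I and 8 in type II, the last a setting added after seeing the data. In intervals of 100 kb, 12.5% (MKN28) and 25% (SNU216) were empty in type I and 0% and 55.6% in type II, as wider intervals bring. With comparison windows as long as the cluster, also added later, 0.631% and 0.167% reached the MKN28 type I and type II densities, and 0.394% and 1.79% those of SNU216. No replicate could be left out. No paired analysis was possible because no line has more than 1 TEAD4 library. Sites found in 1 list are limited by the unknown depth.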
